A study of Mus musculus with 7 samples.

Results

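The mitochondrial respiratory chain and ATP synthase of mouse embryonic fibroblasts (MEFs) were followed at the RNA level through the 91 nuclear genes that carry their names, out of 12840 genes measured at the same minimum. The genes were taken by symbol (Nduf, Uqcr, Atp5 and Cox4 to Cox8, with Sdha, Sdhb, Sdhc, Sdhd and Cyc1, and without pseudogenes named -ps), and by a mean of at least 2 TPM over all libraries. TPM is the share of a library's transcripts that comes from a gene, scaled to a fixed total and corrected for transcript length. Of 94 symbols that matched, 3 were under the minimum, namely Cox7b2, Cox8b and Cox8c, which code for testis or muscle forms of complex IV subunits. Of the 91 genes, 36 code for subunits of complex I, 8 for complex I assembly factors (Ndufaf), 4 for complex II, 9 for complex III, 17 for complex IV and 15 for ATP synthase (complex V). The other two, Atp5s and Atp5sl, carry the Atp5 name but code for no subunit of the enzyme. Ndufa4 and Ndufa4l2 were counted with complex IV, where the Ndufa4 protein is found. Cox7a2l, a factor for supercomplexes of the chain, was also counted there, but with neither the common nor the restricted isoforms. Cox6a2 passed the minimum only through the ER stress library, with a mean of 1.53 TPM over the other libraries.

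The study had 7 RNA-seq libraries of MEFs, 1 from control cells and 1 from each of 6 conditions. Per the labels the cells were wild type, taken from embryos of E13.5 to E14.4 and used at passages 3 to 7. Glucose depletion, glutamine depletion, hypoxia (0.1% oxygen) and ER stress (1 µM thapsigargin, which blocks the calcium pump of the ER) lasted 10 hours. Oxidative stress (10 µM sodium arsenite) and osmotic stress (100 mM NaCl) lasted 3 hours, and all conditions share the same control, so their values are not independent of each other. With 1 library per condition there was no replicate spread to judge a difference by, no p-value is given, and every difference compares libraries. The values hold no read counts, so depth is unknown. In such bulk libraries, fewer cells of a type and less RNA per cell cannot be told apart.

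The respiratory chain passes electrons from NADH (complex I) and succinate (complex II) through coenzyme Q, complex III and cytochrome c to oxygen at complex IV, and complex V uses the resulting proton gradient to make ATP. Most subunits are encoded in the nucleus, and a core set is encoded in mitochondrial DNA, so the complexes draw on both genomes. Complex IV is known for paired isoforms, a common form and a form restricted to tissues such as lung, heart, muscle or testis, and Cox4i2 and Ndufa4l2 are known as genes that respond to low oxygen through the transcription factor HIF.

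Changes are given as the difference in log2(TPM + 1) from the control, a scale that understates the change of genes with low levels, and genes were counted where this difference exceeded 2-fold. Of the 91 genes, 13 passed 2-fold in at least 1 condition, or 14.3%, beside 34.5% of all 12840 genes. Within 1.5-fold of the control in every condition were 64 of the 91 (70.3%), beside 33.1% of all genes. In control cells 72 of the genes were above 50 TPM. Of these, 58 (80.6%) stayed within 1.5-fold throughout, and so did 54.0% of all 3247 genes above 50 TPM. Among the 72, 5 passed 2-fold in some condition. The share past 2-fold among the 3247 genes was not computed, so this count has no background beside it. The most abundant of each complex were Atp5b (the catalytic beta subunit of complex V) at 854 TPM, Cox6b1 of complex IV at 614 TPM, Uqcrh (the hinge protein of complex III) at 405 TPM, Ndufa7 of complex I at 257 TPM and Sdhb (the iron-sulphur subunit of complex II) at 129 TPM. All 91 genes together made up 1.59% of the control library's TPM and between 1.34% (ER stress) and 1.62% (osmotic stress) elsewhere.

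**Figure D1:**
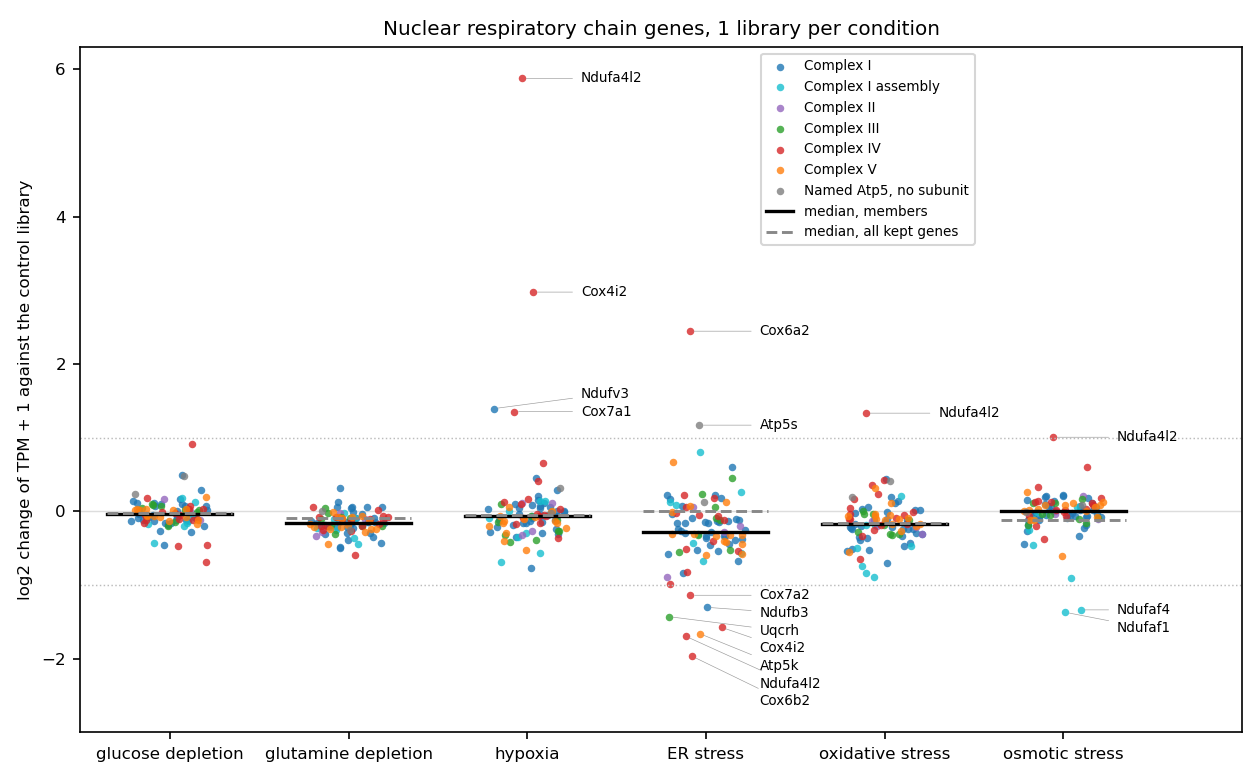
Difference in log2(TPM + 1) from the control library (y axis) for each of 91 genes (points, coloured by complex) in the 6 conditions (x axis), 1 library each. Black and dashed lines are the medians of the 91 genes and of all 12840 genes, dotted lines mark 2-fold, and genes past it are named. Ndufa4l2 stands highest at 5.87 in hypoxia, and 7 genes lie below the lower line in ER stress.

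In hypoxia 3 restricted isoforms of complex IV, Ndufa4l2, Cox4i2 and Cox7a1, and the complex I subunit Ndufv3 were more than 2-fold higher than in the control, and no gene was more than 2-fold lower. The 4 genes are 4.40% of the 91, beside 3.59% of all genes that were more than 2-fold higher and 2.65% that were more than 2-fold lower, so the count is near that background. Over protein-coding genes alone the background was 1.93% and 1.02%. The median change of the 91 genes was -0.07, and that of all genes -0.05.

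The promoter windows of the hypoxia genes that had an entry in the table are shown because these genes were higher together. They run from 250 bases before to 50 bases after the annotated start (RefSeq, GRCm38.p6), 5′ to 3′ on the gene's strand, and the capitals mark the core of the HIF motif (ACGTG or GCGTG, either strand).
Ndufv3 (chr17:31519865-31520164, + strand): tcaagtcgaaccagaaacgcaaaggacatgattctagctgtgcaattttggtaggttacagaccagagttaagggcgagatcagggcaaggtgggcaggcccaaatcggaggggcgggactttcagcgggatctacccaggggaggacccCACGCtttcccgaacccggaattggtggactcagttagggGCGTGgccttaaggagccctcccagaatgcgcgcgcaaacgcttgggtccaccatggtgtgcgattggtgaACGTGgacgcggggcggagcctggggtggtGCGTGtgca
Cox7a1 (chr7:30183921-30184220, + strand): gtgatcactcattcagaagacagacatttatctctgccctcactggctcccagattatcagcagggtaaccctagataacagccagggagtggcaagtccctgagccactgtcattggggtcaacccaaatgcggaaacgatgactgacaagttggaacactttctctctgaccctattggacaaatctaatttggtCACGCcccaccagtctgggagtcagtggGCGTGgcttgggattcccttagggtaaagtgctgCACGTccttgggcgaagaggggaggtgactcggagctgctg
The window of Ndufv3 held 4 matches and that of Cox7a1 held 3. These letters are common: 47 of the 72 genes with a window held at least 1 match (65.3%), as did 62.8% of the windows of the genes measured here and 43.8% of all windows. Genes with more than 1 window were counted if any of them matched, so the share of genes is not like for like with those of windows. The letters ACGTG also lie within the E-box CACGTG, so a match is a description and no binding site. Ndufa4l2 and Cox4i2 have no entry in the table.

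Ndufa4l2 (chr10:127514967-127517154, plus strand, GRCm38), a paralog of Ndufa4 known to lower complex I activity in low oxygen, was at 2.99 TPM in control cells and 233 TPM in hypoxia. It was at 6.52 TPM in glucose depletion, 2.72 in glutamine depletion, 0.233 in ER stress, 9.05 in oxidative stress and 7.01 in osmotic stress. Hypoxia therefore stood far above every other library, and ER stress below every other. The hypoxia value was 77.9 times the control, a log2 difference of 5.87. Ndufa4 itself, at 342 TPM in the control, was at 327 TPM in hypoxia and between 235 and 318 TPM in the other conditions. Ndufa4l2 thus went from 0.867% of the pair's summed TPM in the control to 41.6% in hypoxia, and was at most 2.76% in any other condition. Of the 31-base words in its transcripts, 0.446% occur in other genes.

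Cox4i2 (chr2:152754173-152765037, plus strand), the lung and low-oxygen form of complex IV subunit 4, was at 2.92 TPM in control cells and 29.8 TPM in hypoxia, 10.2 times as high (log2 difference 2.97). The other values were 1.43 TPM in glucose depletion, 2.97 in glutamine depletion, 0.315 in ER stress, 1.51 in oxidative stress and 3.94 in osmotic stress. Hypoxia was again the highest library and ER stress the lowest. The common form Cox4i1 was at 549 TPM in the control, 534 TPM in hypoxia and between 515 and 621 TPM in the other conditions. Cox4i2 made up 0.528% of the summed pair in the control and 5.28% in hypoxia, so the common form remained 17.9 times as abundant there.

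Cox7a1 (chr7:30184144-30186078, plus strand), the heart and skeletal muscle form of subunit 7a, was at 2.24 TPM in control cells and 7.29 TPM in hypoxia, a log2 difference of 1.35. It was between 1.35 TPM (glucose depletion) and 3.94 TPM (osmotic stress) in the other conditions. Its common form Cox7a2 was at 207 TPM in control cells and 195 TPM in hypoxia. All 5 restricted isoforms of complex IV (Ndufa4l2, Cox4i2, Cox7a1, Cox6a2, Cox6b2) were above the control in hypoxia, as were 5512 of all 12840 genes. Their median was 1.35, but Cox6b2 differed by only 0.17, and Cox6a2 was at 1.32 and 2.67 TPM (0.66). The 11 common isoforms had a median of -0.06 and 8 of them were below the control.

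**Figure D2:**
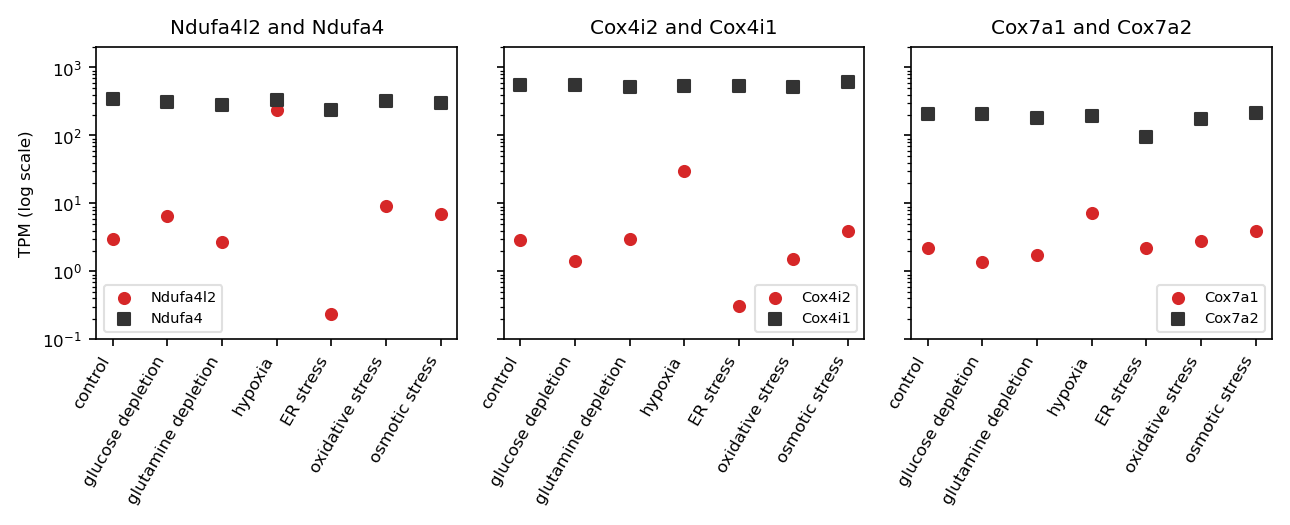
TPM on a log axis in each of the 7 libraries (x axis) for 3 restricted isoforms (red circles) and their common forms (dark squares). Ndufa4l2 reaches 233 TPM in hypoxia beside 327 TPM of Ndufa4, while Cox4i2 and Cox7a1 stay far below Cox4i1 and Cox7a2 in every library.

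Ndufv3 (chr17:31520115-31531331, plus strand), an accessory subunit of the NADH-binding module of complex I, was at 101 TPM in control cells and 267 TPM in hypoxia (log2 difference 1.39). The other libraries read 111 TPM in glucose depletion, 91.0 in glutamine depletion, 82.5 in ER stress, 138 in oxidative stress and 115 in osmotic stress. It was the only 1 of the 72 genes above 50 TPM in the control to pass 2-fold in hypoxia, a count without a background share at that level. Its partners in that module differed by less than 1.5-fold, with Ndufv1 at a log2 difference of -0.31 (85.7 to 69.1 TPM) and Ndufv2 at 0.05. Of the 31-base words of Ndufv3, 4.19% occur in other genes.

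The rest of complex I was close to the control in hypoxia, with a median of -0.05 over its 36 genes and 5 of 7 core subunits below the control. Its lowest gene was Ndufab1, the mitochondrial acyl carrier protein, which was at 181 TPM in control cells and 106 TPM in hypoxia (-0.77). Ndufab1 was lower than the control in all 6 conditions (106 to 150 TPM), so here the control library stood above the others. Complex III had a median of -0.27 and 8 of its 9 genes were below the control, led by Cyc1 (cytochrome c1), at 109 TPM in control cells and 81.2 TPM in hypoxia (-0.41). Complex V had a median of -0.14 with 13 of 15 genes below, the lowest being Atp5k (subunit e) at 319 and 221 TPM (-0.53). Of all genes, 55.4% were below the control in hypoxia, and of the 91 genes 64.8%. Sdhb and Sdhd of complex II were lower (-0.33 and -0.27), and Sdha and Sdhc both higher by 0.11. The largest difference among common complex IV isoforms was that of Cox7b, at 195 and 261 TPM (0.42).

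Other genes of the HIF pathway, many of which act on mitochondria, showed larger differences than nearly all subunits. Of a list of 12, 10 were more than 2-fold higher in hypoxia and none more than 2-fold lower, beside 3.59% and 2.65% of all genes. The median was 2.67 against -0.05 for all genes. These values include Egln3 (4.80), Ero1l (3.10), Egln1 (2.75) and Mxi1 (2.31), which are not known as mitochondrial proteins. Bnip3, which marks mitochondria for removal, was at 26.7 TPM in control cells and 797 TPM in hypoxia (4.85). Pdk1, the kinase that shuts pyruvate out of the citric acid cycle, was at 10.5 and 152 TPM (3.74). Higd1a, a small protein that binds complex IV, was at 121 and 729 TPM (2.59), and the protease Lonp1, known to degrade the Cox4i1 protein, at 69.8 and 156 TPM (1.15). The exceptions were Fundc1 (0.31) and Chchd4 (-0.85), which helps import small proteins with cysteine pairs. Markers of pericytes, cells known for Cox4i2 and Ndufa4l2, and of smooth muscle were looked at beside these values as 1 list. The list mixes both cell types, so its values are not of pericytes alone. Of its 8 markers, 5 were measured above the minimum. Rgs5 (0.940 to 2.28 TPM), Kcnj8 (0.605 to 0.151 TPM) and Abcc9 (0.671 to 0.664 TPM) had means under it (values from control to hypoxia). Of the 5 measured, Notch3 went from 4.80 to 12.8 TPM and Myh11 from 9.46 to 12.2 TPM, Cspg4 from 72.2 to 54.3 TPM and Des from 35.7 to 30.0 TPM. Their median was 0.08, and the summed level of all 8 went from 4144 to 4368 TPM, most of it Acta2. In ER stress, all 5 measured markers were below the control, with a median of -1.15. There 3 were more than 2-fold lower, beside 11.0% of all genes, and the summed level of all 8 was 2250 TPM. Their part in the isoform values was not tested.

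ER stress had the broadest differences. Atp5k, Uqcrh, Ndufb3, Cox7a2, Cox6b2, Cox4i2 and Ndufa4l2 were more than 2-fold lower, and Cox6a2 and Atp5s more than 2-fold higher. These are 7.69% and 2.20% of the 91 genes, beside 11.0% of all genes that were more than 2-fold lower and 8.62% that were more than 2-fold higher, and beside 9.79% and 7.09% of protein-coding genes, so neither count exceeds the background. Cox6a2 passed the minimum only through the ER stress library, so its place among the higher genes follows from that filter. The shift of the group as a whole was plainer: 68 of 91 genes (74.7%) were below the control, against 48.5% of all genes, and the median was -0.27 against 0.00. Centring on the median of all genes leaves this value as it is, since that median is 0. The summed share of the library was 1.34%, the lowest of the 7 libraries.

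Small accessory subunits lay lowest among the abundant genes. Uqcrh (chr4:116066965-116075071, minus strand), which bridges cytochrome c1 and cytochrome c in complex III, was at 405 TPM in control cells and 150 TPM in ER stress (-1.43). Its other values were 434 TPM in glucose depletion, 378 in glutamine depletion, 372 in hypoxia, 373 in oxidative stress and 456 in osmotic stress, so ER stress stood alone. Atp5k (chr5:108433244-108434448, minus strand), subunit e at the ATP synthase dimer interface, was at 319 TPM in the control, 284 in glucose depletion, 262 in glutamine depletion, 221 in hypoxia, 100.2 in ER stress (-1.66), 217 in oxidative stress and 294 in osmotic stress. Hypoxia and oxidative stress were thus also low for Atp5k, with ER stress far below them. Ndufb3 (chr1:58586384-58595964, plus strand), an accessory subunit of the complex I membrane arm, was at 68.0 TPM in the control, 27.0 in ER stress (-1.30), 46.6 in oxidative stress and between 64.4 and 70.6 TPM in the other conditions. Cox7a2 (chr9:79755361-79759878, minus strand) was at 207 TPM in the control, 93.6 in ER stress (-1.14) and between 175 and 211 TPM elsewhere. For these genes between 3.40% (Cox7a2) and 13.5% (Ndufb3) of 31-base words occur in other genes, which include their processed pseudogenes for Uqcrh and Atp5k.

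Just inside 2-fold were Cox6b1, which holds the complex IV dimer together, at 614 and 310 TPM (-0.98), and Sdhd, a membrane anchor of complex II, at 129 and 69.2 TPM (-0.89). The low restricted isoforms were Cox6b2, the testis form of subunit 6b, with 25.9 TPM in control cells and 5.89 in ER stress (-1.97, chr7:4751792-4753094, minus strand) and 16.8 to 33.5 TPM elsewhere, and Ndufa4l2 and Cox4i2, which were under 0.5 TPM in ER stress. Cox6b1 and Cox6b2 were therefore both lower, and Cox6b2 made up 4.05% of the pair in the control and 1.87% in ER stress.

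Some genes went the other way. Cox6a2 (chr7:128205435-128206387, minus strand), the heart and skeletal muscle form of subunit 6a, was at 1.32 TPM in control cells and 11.6 TPM in ER stress (2.44), and between 1.22 and 2.67 TPM in the other libraries. The common form Cox6a1 was at 568 TPM in control cells and 545 TPM in ER stress, so Cox6a2 was still only 2.09% of the pair. Skeletal muscle markers gave no such difference: none of 6 reached the minimum, and their summed level was 2.15 TPM in control cells and 1.25 TPM in ER stress, within a range of 0.640 to 5.58 TPM. Cox6a2 shares 6.15% of its 31-base words with Itgad, which was at 0.556 TPM in control cells and 2.88 TPM in ER stress, and at 2.89 TPM in osmotic stress, where Cox6a2 was at 1.22 TPM. Atp5s was at 9.95 TPM in control cells and 23.6 TPM in ER stress (1.17), and between 8.22 and 13.6 TPM elsewhere.

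Atp5g1, Atp5g2 and Atp5g3 code for the same mature c subunit of the rotating ring of complex V, and their balance differed in ER stress. Atp5g1 was at 274 TPM in control cells and 434 TPM in ER stress (0.66), Atp5g3 at 332 and 248 TPM (-0.42), and Atp5g2 at 36.0 and 35.9 TPM. Atp5g1 therefore made up 42.6% of the summed c-ring TPM in control cells and 60.4% in ER stress, and between 38.6% and 43.5% in the other conditions. Of the 31-base words of Atp5g1, 12.8% occur in other genes, and of those of Atp5g3 0%. For Atp5g2 the share is 40.2%, so its level is uncertain. Uqcrq of complex III was likewise higher (333 to 456 TPM, 0.45), as were the complex I genes Ndufb4 (19.3 to 29.8 TPM, 0.61) and Ndufs3 (42.8 to 50.1 TPM, 0.22). Ndufb4 shares 19.1% of its words with other genes, Ndufb4c among them, Ndufs3 shares 25.4% and Uqcrq 0%. The genes that share words with Ndufb4 summed to 205 TPM in control cells and 156 TPM in ER stress. They were lower where Ndufb4 was higher, so the level of Ndufb4 is uncertain.

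By complex, the ER stress medians were -0.25 for complex I (30 of 36 genes below the control), -0.24 for complex II, -0.12 for complex III, -0.40 for complex IV and -0.33 for complex V (12 of 15 below). Within complex I the 29 accessory subunits had a median of -0.29 and the 7 core subunits -0.10. The catalytic genes of complex III, Cyc1 (0.23) and Uqcrfs1 (-0.12), and the beta subunit Atp5b (0.07) were near or above the control. Transcript length went along with this pattern. The genes code for short transcripts, with a median of 934 nt (longest coding transcript of each gene) beside 3162 nt for all protein-coding genes measured, and all 7 genes past 2-fold below were among the 49 under 1000 nt. Across the 91 genes, Spearman's rho between length and ER stress change was 0.296, a description over genes that share 2 libraries. All 589 protein-coding genes under 1000 nt had a median of -0.20 in ER stress, beside 0.03 for the 10698 longer genes. Of these 589 genes, 11.5% were more than 2-fold lower, near the 9.79% of all protein-coding genes. The 49 short genes of the respiratory chain had a median of -0.33 and the 42 longer ones -0.18. The part of length in the result was not tested.

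**Figure D3:**
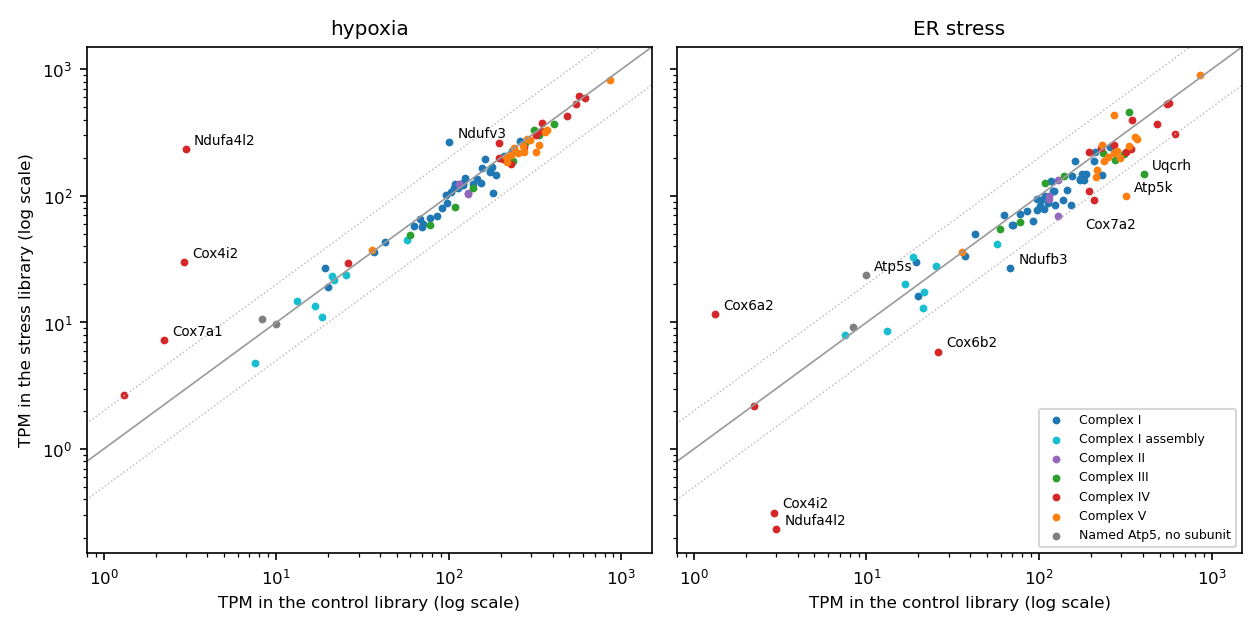
TPM of each of the 91 genes in the control (x axis) against hypoxia or ER stress (y axis), on log axes, coloured by complex. The solid line marks equal levels and the dotted lines 2-fold in TPM, and names mark genes past 2-fold in TPM + 1. In hypoxia the isoforms at the lower left rise off the line and Ndufv3 is the 1 abundant gene to do so, whereas in ER stress Uqcrh, Atp5k, Cox7a2 and Ndufb3 lie below it.

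Among regulators of mitochondrial gene expression, a list of 14 of which 11 were measured, 2 were more than 2-fold higher in ER stress (Myc and Tfb2m) and none lower, beside 8.62% and 11.0% of all genes, with a median of 0.54. Tfam, which packages mitochondrial DNA, was at 29.4 TPM in control cells and 49.4 TPM in ER stress (0.73), and Nrf1, an activator of many respiratory chain genes, at 24.4 and 37.9 TPM (0.61). The coactivators Ppargc1a and Ppargc1b were under 2 TPM in every library. Lonp1 was at 204 TPM in ER stress (1.54). Of the 72 respiratory chain genes with a promoter window, 19 (26.4%) held the NRF1 motif (GCGCA, any base, then GCGC). Of the windows of all genes measured, 10.2% held it. The ETS motif CCGGAAG was at 25% beside 18.0% and the YY1 motif AAGATGG at 15.3% beside 7.15%, both strands searched. The first of each pair counts genes, some with more than 1 window, and the second counts windows, so they are not like for like. With C as its free base the NRF1 motif holds the HIF core on the other strand, so these matches can overlap, and a match is a description. Fibroblast markers also differed in ER stress, with Pdgfrb, Col3a1 and Lum of 9 markers more than 2-fold lower and their summed level at 6166 TPM beside 10269 to 12813 TPM in the other libraries. Their part in the subunit values was not tested.

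Glutamine depletion gave no gene past 2-fold, beside 3.21% of all genes higher and 3.22% lower (1.89% and 1.87% of protein-coding genes), but a shallow shift across the group. Here 80 of 91 genes (87.9%) were below the control, against 59.9% of all genes, with a median of -0.16 against -0.09. All 15 genes of complex V, all 8 assembly factors and all 4 of complex II were below it. The 78 mitochondrial ribosome genes had a median of -0.19 with 65 below the control, and the 83 cytosolic ribosome genes -0.10 with 71 below. The 42 assembly factors outside the Nduf names had -0.28 with 30 below. Lower values were therefore not particular to the 91 genes. Genes encoded in mitochondrial DNA were 7.58% of this library and 6.37% of the control. The c-ring gene Atp5g1 (274 to 202 TPM, -0.44), Ndufab1 (181 to 128 TPM, -0.50) and Ndufb7 of the complex I membrane arm (153 to 109 TPM, -0.49) were lowest among the abundant genes. The lowest of all was Cox6b2, at 25.9 and 16.8 TPM (-0.60). The highest was Ndufb4 at 19.3 and 24.2 TPM (0.32), with the reservation on its shared words given above.

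Glucose depletion was close to the control. No gene passed 2-fold, beside 1.84% of all genes higher and 2.41% lower (0.442% and 0.602% of protein-coding genes), and 55 of 91 genes (60.4%) were below the control against 53.7% of all genes. The median was -0.04 against -0.02. Ndufa4l2 was highest (2.99 to 6.52 TPM, 0.91) and Cox4i2 lowest (2.92 to 1.43 TPM, -0.69), so the isoforms that were higher together in hypoxia lay on opposite sides of the control here. Both rest on a few TPM. Uqcrh (0.10), Cox7c (0.18) and Atp5l (0.19) were the highest genes of the common subunits in complexes III, IV and V.

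Arsenite and NaCl, given for 3 hours, left most subunits near the control, and the genes more than 2-fold lower were both complex I assembly factors. In oxidative stress only Ndufa4l2 passed 2-fold, higher at 9.05 TPM beside 2.99 TPM (1.33), or 1.10% of the 91 genes beside 3.93% of all genes, and no gene was more than 2-fold lower beside 4.88%. Over protein-coding genes these shares were 1.79% and 3.46%. The median was -0.17 against -0.16 for all genes, and 71 of 91 genes (78.0%) were below the control against 66.0%. In osmotic stress Ndufa4l2 was higher (7.01 TPM, 1.01) and Ndufaf1 and Ndufaf4 were lower, 1.10% and 2.20% of the genes beside 3.08% and 8.78% of all genes, or 1.41% and 7.35% of protein-coding genes. The median there was -0.00012 against -0.12, and 47 of 91 genes (51.6%) were below the control against 61.6%. The summed share of the library was 1.62%, the highest of the 7 libraries.

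Ndufaf1, an assembly factor of the complex I membrane arm, was at 21.7 TPM in the control, 15.9 in glucose depletion, 18.1 in glutamine depletion, 21.7 in hypoxia, 17.4 in ER stress, 11.3 in oxidative stress and 7.77 in osmotic stress. Both 3-hour libraries were the lowest, with log2 differences of -0.88 and -1.37. Ndufaf4, another assembly factor, was at 18.5 TPM in the control, 16.4 in glucose depletion, 17.1 in glutamine depletion, 11.1 in hypoxia (-0.69), 33.1 in ER stress (0.80), 9.95 in oxidative stress (-0.83) and 6.72 in osmotic stress (-1.34). It was lowest in the same libraries and highest in ER stress. Over the 8 Ndufaf genes the median was -0.48 in oxidative and -0.36 in osmotic stress, with 7 of 8 below the control in each. Of all genes, 66.0% and 61.6% were below it. The 42 measured assembly factors outside the Nduf names had medians of -0.32 and -0.24, with 33 and 32 below. The 78 mitochondrial ribosome genes had -0.29 and -0.24, with 73 and 66 below. Lower values were therefore not particular to the Ndufaf genes. Ndufaf7, a methyltransferase for a core subunit, was at 13.2 TPM in control cells and 7.52 TPM in oxidative stress (-0.74), and Ndufaf6 at 7.55 TPM and 3.55 TPM in osmotic stress (-0.91). Ndufaf3 was lowest in ER stress (21.2 to 12.9 TPM, -0.67). The duration of these treatments and the agents used cannot be told apart, since no untreated library was kept for 3 hours.

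Among subunits above 50 TPM in the control, Ndufs5 of complex I was lowest in oxidative stress (188 to 116 TPM, -0.70), followed by Atp5k (319 to 217 TPM, -0.55), while Cox7b was higher (195 to 261 TPM, 0.42). In osmotic stress Atp5g2 was lowest of complex V (36.0 to 23.4 TPM, -0.60), with the reservation above, and the complex IV median was 0.09, with Cox4i1 at 621 TPM beside 549 TPM (0.18). All 5 genes of the catalytic F1 head were above the control there, with a median of 0.08. The summed level of genes encoded in mitochondrial DNA was 9.25% of the library in oxidative stress beside 6.37% in the control and 5.09% in ER stress, and a larger share there lowers the TPM of every other gene.

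The 13 subunit genes encoded in mitochondrial DNA gave medians of 0.06 in glucose depletion, 0.32 in glutamine depletion, 0.00 in hypoxia, -0.40 in ER stress, 0.51 in oxidative stress and -0.36 in osmotic stress. The ER stress library was the 1 in which both the nuclear and the mitochondrial medians were lower by more than 0.1. In glutamine depletion and oxidative stress the mitochondrial median was above the control and the nuclear median below it, although mt-Nd3 was lower in glutamine depletion (2012 to 1349 TPM, -0.58). None of the 13 passed 2-fold in any condition. For example, mt-Co1, the catalytic subunit of complex IV, was at 6010 TPM in the control, 4497 in ER stress and 8581 in oxidative stress, while Cox4i1 was at 549, 531 and 515 TPM.

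**Figure D4:**
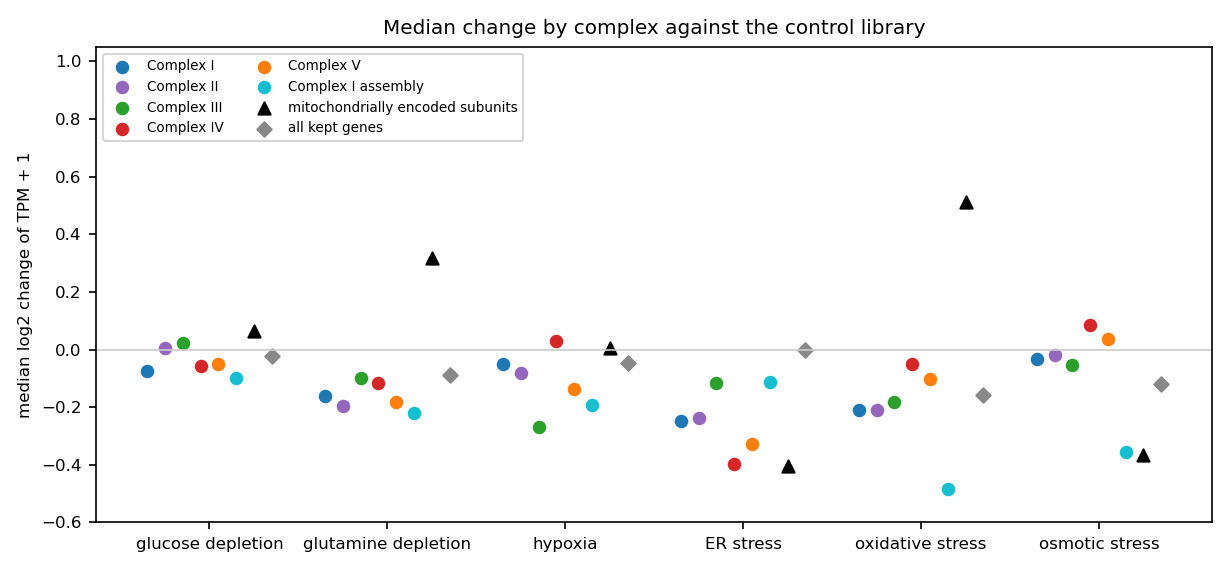
Median difference in log2(TPM + 1) from the control (y axis) by condition (x axis) for each nuclear complex (circles), the 13 mitochondrially encoded subunits (triangles) and all 12840 genes (diamonds). The mitochondrial median runs from -0.40 in ER stress to 0.51 in oxidative stress, a wider range than that of any nuclear complex shown.

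**Figure D5:**
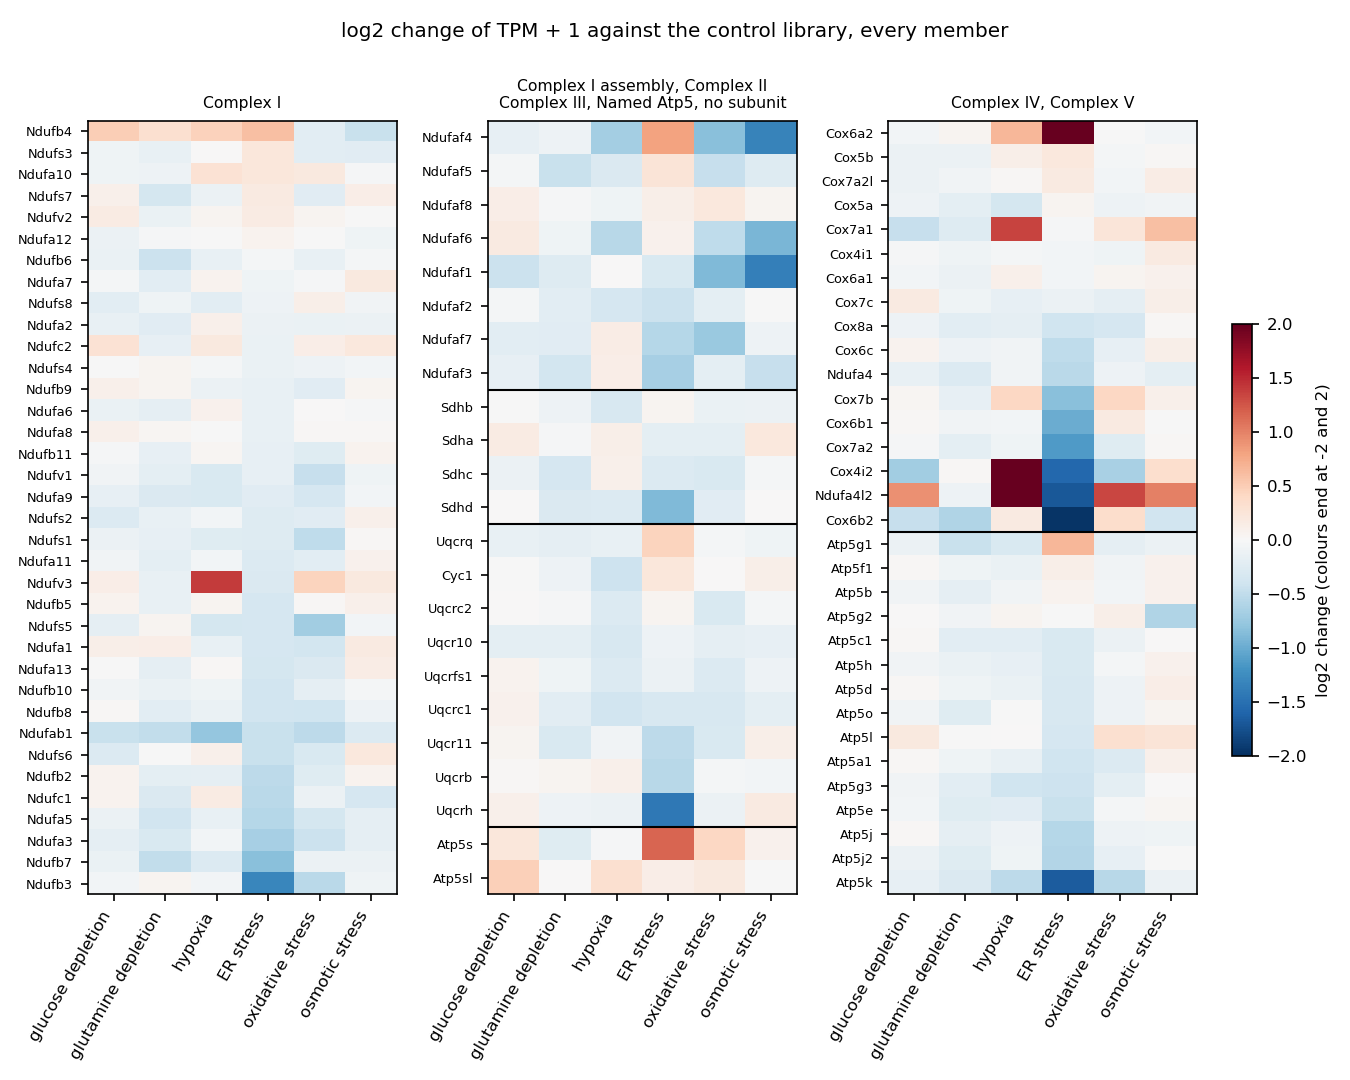
Difference in log2(TPM + 1) from the control for all 91 genes (rows, grouped by complex and ordered by ER stress) in the 6 conditions (columns), with colours ending at -2 and 2. Most rows are pale, the ER stress column is blue for 68 genes, and the strong colours fall on restricted complex IV isoforms, Ndufv3, Uqcrh, Ndufb3, Atp5k and assembly factors.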

How the data were processed

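RNA-seq was performed on MEFs, with 1 library for the control and for each of 6 conditions. The authors estimated transcript levels with Kallisto 0.43.1 at default settings against all cDNA of GRCm38 (Ensembl release 90), and deposited gene-level TPM (sums over a gene's transcripts) without read counts. TPM is a share of each library, so a large difference in abundant genes moves all others.

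Differences in log2(TPM + 1) from the control were taken from these values. A mean of 2 TPM or more was required, and rows of a symbol with identical values were counted once, which left 12840 of 49382 rows. Only the difference and the 2-fold threshold were run on simulated data, with planted changes far past that threshold. This checks the code and does not bear on the results. A 2-fold threshold follows the study's methods. No test was run, since each condition has 1 library. Transcript words of 31 bases, lengths and locations came from GENCODE M21 (GRCm38), and promoter windows, which matched 72 of 91 genes, from RefSeq (GRCm38.p6). The genes, lists and tests were chosen with earlier results of these data known. Named genes are those past 2-fold, the isoform pairs, the highest and lowest genes of a complex, the most abundant genes, the Sdh genes, assembly factors past 1.5-fold and a few regulators. Mitochondrially encoded subunits, mt-Co1 among them, and list genes outside this rule were named after their values were seen. The background over protein-coding genes was added after seeing the data. Analyses ran in Python 3.11.15 with pandas 2.3.3 and numpy 2.4.6, and plots in matplotlib 3.10.9.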

Additional observations from a re-analysis of the deposited data

How the results depend on the processing

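No paired analysis was possible because each condition has 1 library and the results come from no test; for the same reason no replicate could be left out. Alternatives were pseudocounts of 0.1 and 5 TPM, no minimum or one of 10 TPM, centring on the all-gene median, a 1.5-fold threshold, removal of mitochondrially encoded genes, rows of a symbol summed, and the median of the other 6 libraries as the reference. No gene past 2-fold changed sign. Centring moved the median of the 91 genes to 0.12 in osmotic and -0.011 in oxidative stress, and the other reference moved it to 0.11 in osmotic stress and 0.063 in glucose depletion, so the medians near 0 in these conditions (-0.00012 and -0.04) have no stable sign. At 1.5-fold, the genes lower were 14 in ER stress (beside 21.3% of all genes), 1 in glucose depletion (6.24%), 1 in glutamine depletion (10.6%), 2 in hypoxia (8.12%), 4 in osmotic (19.6%) and 5 in oxidative stress (16.3%), and those higher were 5 in ER stress (19.0%), 1 in glucose depletion (3.48%) and 2 in osmotic stress (6.59%). All of these counts are smaller shares of the 91 genes than of all genes. With the other reference, 1 gene was lower in glutamine depletion, and 0 were higher in osmotic and 0 in oxidative stress. At a mean of at least 10 TPM, 1 gene was higher in ER stress and 2 in hypoxia, because the low isoforms leave the table. A pseudocount of 5 left 1 gene higher in ER stress and 0 in osmotic and oxidative stress, and one of 0.1 gave 1 in glucose depletion (Ndufa4l2). Calls on genes of a few TPM depend on the pseudocount: with 5 TPM the hypoxia value of Cox7a1 was 0.76, and the ER stress values of Cox4i2, Ndufa4l2 and Atp5s were -0.58, -0.61 and 0.94. The depth behind such levels is unknown.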

Other observations

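Assembly factors of the chain outside the Nduf names (42 measured of 43) had counts in ER stress near or under those of all genes. There 4 were more than 2-fold higher, namely Lyrm7, Tmem126a, Sco1 and Sco2, and 1 was lower, Pet100, a complex IV assembly factor, at 59.9 TPM in control cells and 14.6 TPM in ER stress (-1.96), beside 8.62% of all genes higher and 11.0% lower. Tmem126a, a factor for complex I, was at 92.6 and 230 TPM (1.31). The copper chaperones Sco1 and Sco2 of complex IV were at 10.2 and 21.5 TPM and at 13.8 and 28.6 TPM (1.01 for each). Their median was 0.04, beside -0.27 for the 91 subunit and Nduf genes. Taco1, which promotes translation of a mitochondrial complex IV subunit, was at 12.5 TPM in control cells, 4.63 under oxidative (-1.26) and 3.71 under osmotic stress (-1.52).

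Of 16 electron carrier and coenzyme Q genes measured, 1 passed 2-fold, Coq8a in osmotic stress (1.99 to 7.60 TPM, 1.52), where 3.08% of all genes were higher. Cytochrome c (Cycs) was between 23.0 and 34.9 TPM in all libraries. The 78 mitochondrial ribosome genes had medians of -0.29 in hypoxia and 0.02 in ER stress, and the 83 cytosolic ribosome genes measured had -0.07 and 0.03. Of the other cell types checked, 1 endothelial, 1 macrophage and 1 epithelial marker reached the minimum, as did 2 neural markers and 0 of 4 erythroid markers.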
